A study of Mus musculus with 6 samples.

Results

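Transcripts of 32 megakaryocyte and platelet genes were followed in mouse bone marrow cultures grown on a stiff or a soft substrate. The genes were chosen by symbol with earlier results of these data known, so their counts beside those of all tested genes are a description. All 32 were found among the 24062 symbols of the count tables, and all 32 passed the filter on low counts that left 13155 genes to test. They comprise 14 surface receptors, 6 secreted and granule proteins, 6 proteins classed under cytoskeleton, secretion and enzymes, and 6 transcription factors. At 50 kPa 15 of the 32 fell and 0 rose, where 1.98% of all tested genes fell. Those that fell include 3 of the 4 genes of the platelet receptor for von Willebrand factor, the integrin gene Itga2b and the chemokine gene Ppbp. Neither the chemokine gene Pf4 nor the adhesive ligand gene Vwf passed the test.

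The cultures came from C57BL/6J bone marrow, flushed out of tibia and femur, and all received GM-CSF at 20 ng/ml, with feeding on days 3, 6 and 10. The high tension group was grown at 50 kPa (3 libraries) and the low tension group at 2 kPa (3 libraries), with polyA RNA sequenced from each. The titles call the samples dendritic cells, no sort is named, and the labels do not say whether each replicate was its own culture or animal, so p-values measure the spread between these libraries, which may be technical. The labels used here give neither age nor sex of the mice. The comparison asks how the stiffness of the substrate alters transcription in such a mixed myeloid culture.

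Megakaryocytes are the large marrow cells that shed platelets. Their program is set up by GATA1 with its cofactor FOG1 (Zfpm1), by the ETS factor FLI1, by TAL1 and GFI1B, and late in maturation by NF-E2. Platelets carry the glycoprotein Ib-IX-V complex, which binds von Willebrand factor, and integrin alphaIIb-beta3, which binds fibrinogen. Their alpha granules store chemokines and adhesive proteins that are released on activation. Some of these genes are not particular to the lineage: Pf4 is also made by macrophages, Vwf, Selp and Esam by endothelial cells, and Gata1 and Gfi1b by erythroid cells, mast cells and basophils.

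Libraries held 33.8 M to 36.3 M counts. Levels below are normalised CPM, that is counts for each M of the library after TMM scaling, in which 1 count was worth 0.0240 to 0.0311 CPM. The closest pair of libraries was high tension replicates 1 and 2, whose chi-square divided by its degrees of freedom was 6.71, where other pairs of 1 group gave 126 to 233. Pairs across the stiffnesses ran from 122 (high tension 3 with low tension 1) to 418 (high tension 2 with low tension 2). Some of these were therefore as close as pairs within a group. Dendritic cell markers summed to 9499 to 13821 CPM at 50 kPa and 4682 to 8428 CPM at 2 kPa over 12 genes. Cd74 and Itgax were among those detected in every library. Of the 12 genes, 8 had a negative log2 fold change (median -0.59), so most single markers went the other way from the sum.

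Of the 32 genes, 15 were lower and 0 higher at 50 kPa by edgeR's quasi-likelihood test at an adjusted p under 0.05, where 1.98% of all tested genes were lower and 1.47% higher. The edgeR adjusted p-values of the 15 ran from 0.0286 to 0.0486. By unadjusted p under 0.05, 24 were lower and 1 higher in edgeR, beside 14.8% and 13% of all tested genes. DESeq2 called 23 lower and 0 higher, beside 9.51% and 8.52% of all tested genes. These 23 were the 15 called by edgeR and Gp1bb, Treml1, Pear1, Tubb1, Ctla2a, Mylk, Gfi1b and Nfe2. Limma-voom called 18 lower, beside 1.79% of all tested genes. The median log2 fold change of the 32 was -2.26, against -0.028 for all tested genes. In 23 of the 32 every 50 kPa library lay below every 2 kPa library, a property of 16.9% of tested genes, in 1 every 50 kPa library lay above, and in 8 the groups overlapped. In these bulk libraries fewer cells of a type and less RNA per cell cannot be told apart. The count of lower genes was 19 without high tension replicate 3 and 11 without low tension replicate 1. It was 0 without high tension replicate 1, high tension replicate 2, low tension replicate 2 or low tension replicate 3, and 0 with the counts of high tension replicates 1 and 2 summed. Over all tested genes the count of lower genes was also 0 in each of these 5 fits, against 260 with all libraries, so these losses are not particular to the 32. All 15 kept a negative fold change and an unadjusted edgeR p under 0.05 in all 7 fits, the 6 that leave out 1 library and the summed one, which share libraries with the fit that called them.

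**Figure D1:**
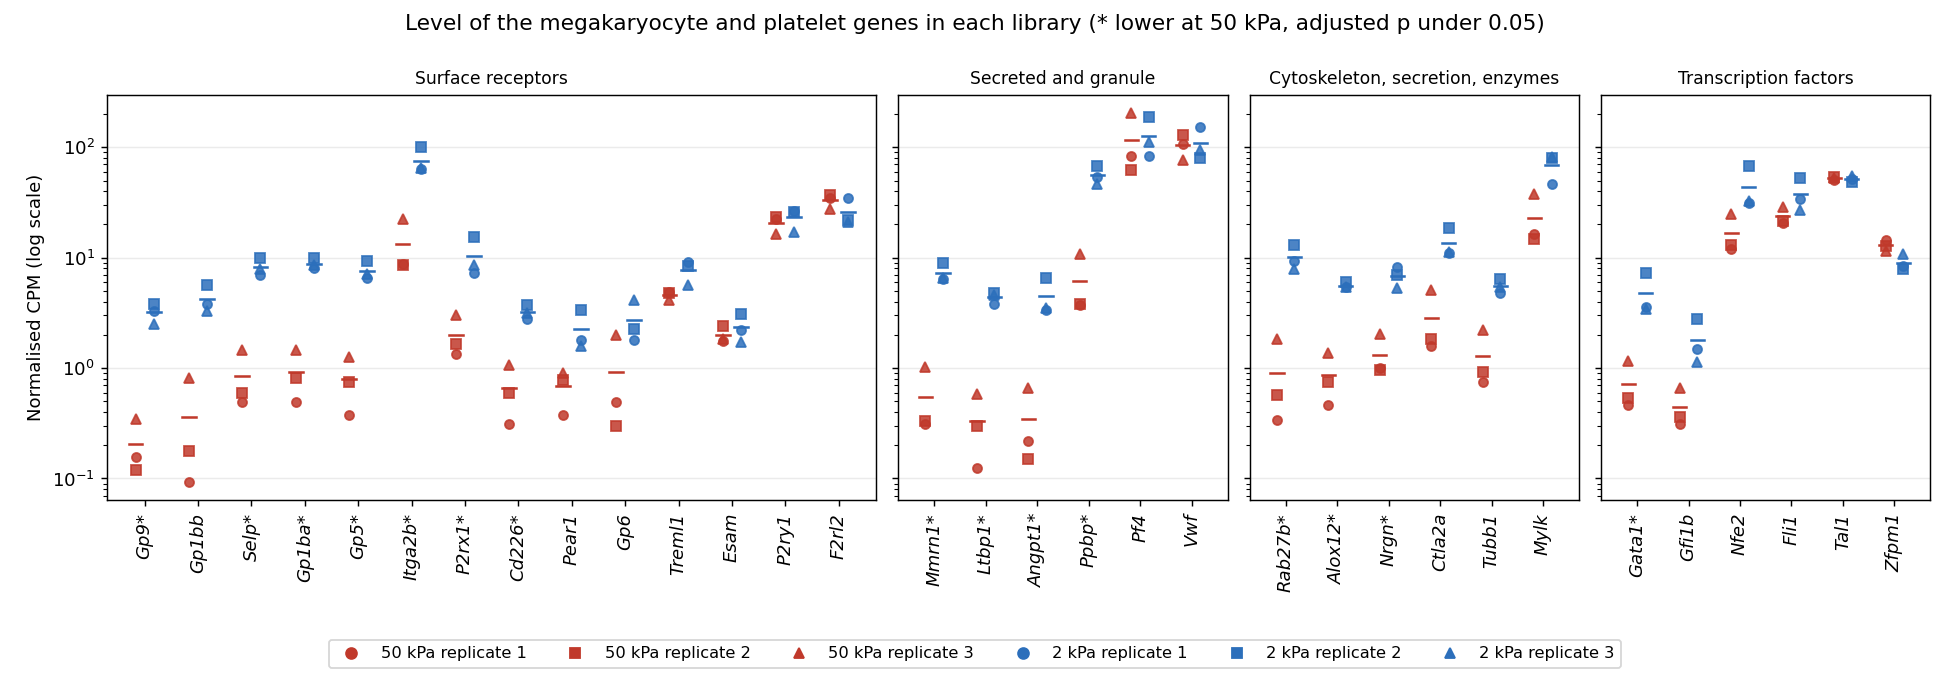
Normalised CPM (log axis) of each gene in each library, with 50 kPa left of 2 kPa, a symbol for each replicate and a bar at the group mean (n = 3). Gp9 and Mmrn1 sit far lower at 50 kPa, while Pf4, Vwf and Tal1 overlap between the stiffnesses.

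All 4 subunit genes of the Ib-IX-V complex were lower in every 50 kPa library than in any 2 kPa library, as were 16.9% of all tested genes. Of the 4, 3 passed the test, where 1.98% of all tested genes fell. Gp1ba, the subunit that binds von Willebrand factor, had 0.498, 0.806 and 1.45 CPM at 50 kPa, against 8.0, 10.0 and 8.50 CPM at 2 kPa. The groups were far apart, with a log2 fold change of -3.26 ± 0.38 (edgeR adjusted p = 0.0291). Gp9, which stabilises the complex at the surface (chromosome 6, 87778072 to 87779768, plus strand, GRCm38), had 0.156, 0.119 and 0.347 CPM at 50 kPa, against 3.26, 3.81 and 2.52 CPM at 2 kPa. Its 50 kPa values rest on 5, 4 and 12 reads, against 126, 159 and 84 reads at 2 kPa, and it had the largest fall of the 32 (-3.92 ± 0.42, edgeR adjusted p = 0.0286). Gp5, the subunit cleaved by thrombin, had 0.373, 0.746 and 1.27 CPM at 50 kPa, against 6.50, 9.28 and 7.15 CPM at 2 kPa. It fell by 3.25 on the log2 scale (standard error 0.43, edgeR adjusted p = 0.0348). Gp1bb, the disulphide-linked partner of Gp1ba, had 0.0933, 0.179 and 0.810 CPM at 50 kPa, against 3.83, 5.66 and 3.30 CPM at 2 kPa. The groups did not overlap, yet the 50 kPa libraries ranged from 3 to 28 reads and the change missed the threshold (-3.54 ± 0.70, edgeR adjusted p = 0.0527). Without high tension replicate 3 it was called (-4.92, edgeR adjusted p = 0.027), as it was by limma-voom (adjusted p = 0.0398) and with total-count scaling (edgeR adjusted p = 0.0473). The exons of Gp1bb overlap those of Sept5 and Gm49601 on the same strand, so its counts depend on how shared reads were assigned. Summed over both genes this overlap was 2769 bases, beside an exon length of 2087 bases. Per kb of exon the means of the 4 subunits spanned 0.173 to 0.363 CPM per kb at 50 kPa and 2.04 to 3.63 CPM per kb at 2 kPa. The lower end at each stiffness is that of Gp1bb, whose level per kb carries the same limit.

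Itga2b encodes the alphaIIb chain of the fibrinogen receptor and lies on chromosome 11 (102453297 to 102470122, minus strand). It was the most abundant of the 14 receptor genes per kb at 2 kPa, with means of 2.44 CPM per kb at 50 kPa and 13.9 CPM per kb at 2 kPa. In CPM it had 8.68, 8.66 and 22.6 at 50 kPa, against 63.3, 99.8 and 64.4 at 2 kPa. The third 50 kPa library was the highest of its group and still below every 2 kPa library, and the mean was 5.70-fold lower at 50 kPa (edgeR adjusted p = 0.0444, -3.12 on the log2 scale without high tension replicate 3). Its partner Itgb3, the beta3 chain, which also pairs with the alphaV chain on other cells, had 38.0, 34.9 and 30.8 CPM at 50 kPa, against 59.4, 77.0 and 58.2 CPM at 2 kPa. It fell by less, 0.91 on the log2 scale (standard error 0.15, edgeR adjusted p = 0.0381), a difference between the partners that was not tested.

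Selp encodes P-selectin, the granule membrane lectin that reaches the surface of activated platelets. It had 0.498, 0.597 and 1.45 CPM at 50 kPa, against 6.94, 9.83 and 7.84 CPM at 2 kPa, and fell by 3.26 on the log2 scale (standard error 0.43, edgeR adjusted p = 0.0344; -3.89 without high tension replicate 3). P2rx1, the ATP-gated cation channel of platelets, had 1.34, 1.64 and 3.04 CPM at 50 kPa, against 7.27, 15.4 and 8.56 CPM at 2 kPa. Cd226, an adhesion receptor of platelets, lymphocytes and myeloid cells, had 0.311, 0.597 and 1.07 CPM at 50 kPa, against 2.79, 3.69 and 3.18 CPM at 2 kPa. Both fell, with log2 fold changes of -2.37 ± 0.43 for P2rx1 and -2.28 ± 0.43 for Cd226 (edgeR adjusted p = 0.046 and 0.0486).

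The remaining 7 receptor genes, Gp1bb included, were not called. Treml1, a receptor stored in alpha granules, had 4.88, 4.84 and 4.17 CPM at 50 kPa, against 9.16, 8.47 and 5.65 CPM at 2 kPa. Pear1, a receptor that signals on platelet contact, had 0.373, 0.776 and 0.897 CPM at 50 kPa, against 1.81, 3.38 and 1.59 CPM at 2 kPa. In both genes the groups were apart, but neither passed the test (edgeR adjusted p = 0.0975 and 0.0806). Gp6, the collagen receptor, had 0.498, 0.299 and 2.00 CPM at 50 kPa, against 1.79, 2.25 and 4.12 CPM at 2 kPa, so the third 50 kPa library overlapped the 2 kPa range (-1.53 ± 0.72, edgeR adjusted p = 0.223; -2.76 without high tension replicate 3, edgeR adjusted p = 0.0577). The ADP receptor gene P2ry1 had 22.3, 23.3 and 16.5 CPM at 50 kPa, against 26.6, 25.8 and 17.1 CPM at 2 kPa. F2rl2, which encodes the thrombin receptor cofactor PAR3 of mouse platelets, had 34.9, 37.2 and 27.9 CPM at 50 kPa, against 34.5, 22.1 and 21.1 CPM at 2 kPa. Esam, an adhesion molecule of platelet and endothelial junctions, had 1.74, 2.39 and 1.82 CPM at 50 kPa, against 2.20, 3.12 and 1.71 CPM at 2 kPa. In these last 3 genes the groups overlapped, and log2 fold changes were -0.16 ± 0.21 for P2ry1, 0.36 ± 0.22 for F2rl2 and -0.24 ± 0.28 for Esam, which stood at 0.017 without low tension replicate 2. P2ry1 and Selp share exon bases with a gene on the opposite strand, as do Angpt1 and Mylk, and no source used here says whether reads were counted by strand. Pear1 shares 321 exon bases with Lrrc71 on the same strand.

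**Figure D2:**
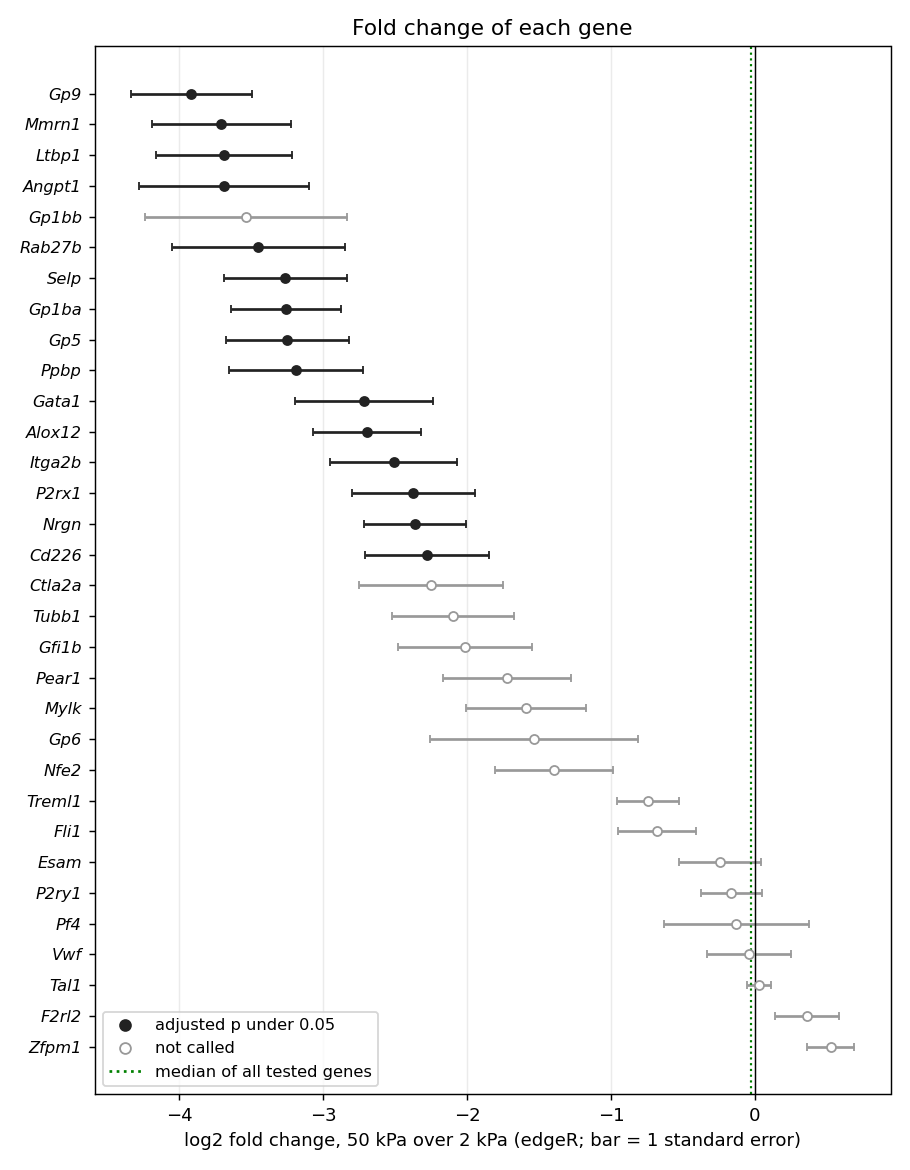
Log2 fold change of each gene, 50 kPa over 2 kPa, from edgeR, with bars of 1 standard error, filled points for an adjusted p under 0.05 and a dotted line at the median of all tested genes (-0.028). The 15 filled points lie between -3.92 for Gp9 and -2.28 for Cd226, and the open points run from -3.54 for Gp1bb to 0.53 for Zfpm1.

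Of the 6 secreted and granule genes, 4 fell, where 1.98% of all tested genes fell, while Pf4 and Vwf were not called. Ppbp encodes the precursor of the chemokine CXCL7, stored in alpha granules, and lies at 90768518 to 90770063 on the plus strand of chromosome 5. It had 3.76, 3.82 and 10.9 CPM at 50 kPa, against 54.0, 68.1 and 46.7 CPM at 2 kPa. The mean was 9.14-fold lower at 50 kPa (-3.19 ± 0.47, edgeR adjusted p = 0.0353; -3.88 without high tension replicate 3). Pf4, the gene of platelet factor 4, another granule chemokine, lies at 90772435 to 90773383 on the same strand. It had 82.8, 62.5 and 204 CPM at 50 kPa, against 82.7, 186 and 113 CPM at 2 kPa. The 2 kPa values lay inside the 50 kPa range (-0.13 ± 0.51, edgeR adjusted p = 0.883), and the sign of its fold change turned without high tension replicate 1, high tension replicate 2 or low tension replicate 2 (0.087, 0.19 and 0.25), while it stood at -0.80 without high tension replicate 3. Per kb of exon Pf4 was the most abundant of the 32 genes at both stiffnesses, at 162 CPM per kb at 50 kPa and 177 CPM per kb at 2 kPa, against 5.68 and 52.0 CPM per kb for Ppbp.

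Vwf, the multimeric ligand of the Ib-IX-V complex, had 108, 130 and 77.4 CPM at 50 kPa, against 151, 79.6 and 94.0 CPM at 2 kPa. The groups overlapped (-0.043 ± 0.29, edgeR adjusted p = 0.936), with a positive fold change without high tension replicate 3 (0.14) or low tension replicate 1 (0.28). Mmrn1, the multimerin that binds factor V in alpha granules, had 0.311, 0.328 and 1.01 CPM at 50 kPa, against 6.44, 8.88 and 6.52 CPM at 2 kPa. It fell by 3.71 on the log2 scale (standard error 0.48, edgeR adjusted p = 0.0337; -4.49 without high tension replicate 3). Ltbp1, which binds latent TGF-beta, had 0.124, 0.299 and 0.579 CPM at 50 kPa, against 3.83, 4.77 and 4.57 CPM at 2 kPa. Angpt1, the TIE2 ligand angiopoietin 1, which platelets carry, had 0.218, 0.149 and 0.665 CPM at 50 kPa, against 3.39, 6.60 and 3.51 CPM at 2 kPa. Both were 13.1-fold lower at 50 kPa by their means, from 4 to 23 reads per 50 kPa library (edgeR adjusted p = 0.0322 for Ltbp1 and 0.0381 for Angpt1). Without high tension replicate 3 their log2 fold changes were -4.34 and -4.59.

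**Figure D3:**
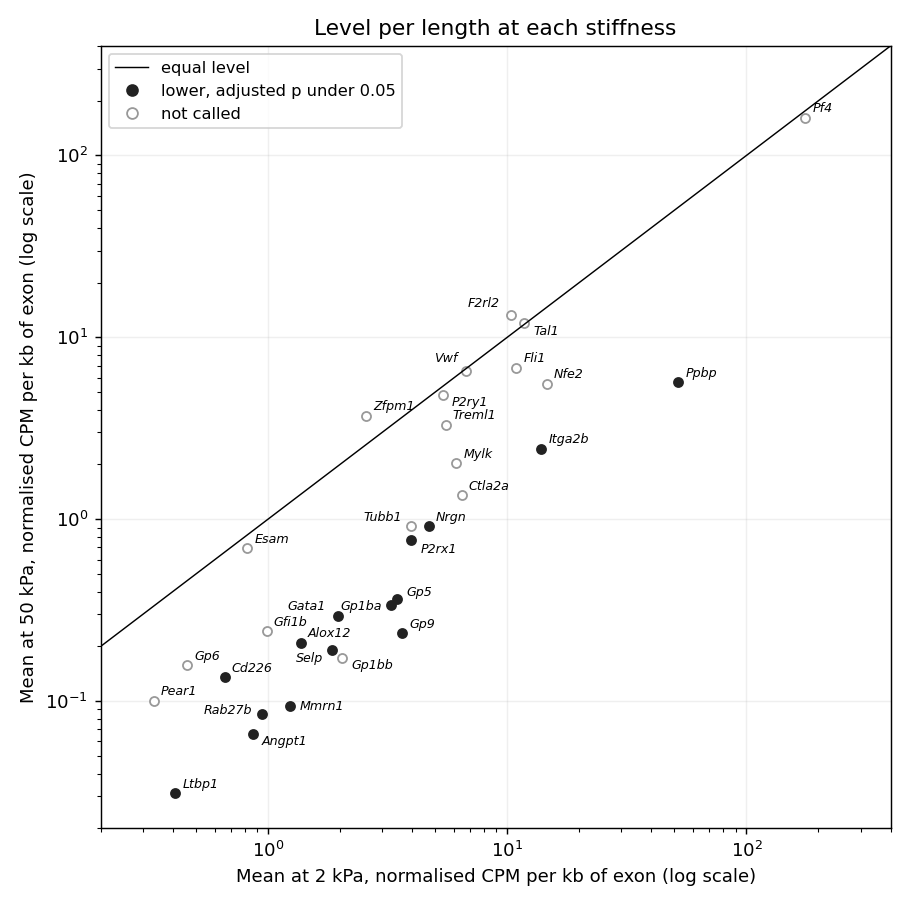
Mean level per kb of exon at 50 kPa (vertical) against 2 kPa (horizontal), both in normalised CPM per kb on log axes, with filled points for genes lower at an adjusted p under 0.05 and a line of equal level. Pf4, Vwf and Tal1 lie on or near the line, and Ppbp, at 5.68 and 52.0 CPM per kb, lies far below it.

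The promoters of Ppbp and Pf4 are shown because these granule genes are neighbours of which 1 was called and the other not, and those of Gp1ba, Gp5, Gp9 and Itga2b because these receptor genes fell, Gp9 the most of the 32. The RefSeq promoter table used here (GRCm38.p6) matched 25 of the 32 genes. Each sequence below is the 250 bases before the RefSeq start site, read on the gene's own strand. Capitals mark letters searched as GATA motifs (AGATAA or TGATAA) or ETS motifs (ACCGGAA or CAGGAA) on either strand. No motifs overlapped in these 6 windows. The windows are chr11:70638872-70639121 (plus strand) for Gp1ba, chr16:30310782-30311031 (minus strand) for Gp5, chr6:87777820-87778069 (plus strand) for Gp9, chr11:102469884-102470133 (minus strand) for Itga2b, chr5:90768268-90768517 (plus strand) for Ppbp and chr5:90772185-90772434 (plus strand) for Pf4.
Gp1ba: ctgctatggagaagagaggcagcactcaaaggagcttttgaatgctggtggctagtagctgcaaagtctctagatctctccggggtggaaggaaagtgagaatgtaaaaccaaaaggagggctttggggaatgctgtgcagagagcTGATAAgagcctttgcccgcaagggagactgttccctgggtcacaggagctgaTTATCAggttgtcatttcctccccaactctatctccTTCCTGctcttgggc
Gp5: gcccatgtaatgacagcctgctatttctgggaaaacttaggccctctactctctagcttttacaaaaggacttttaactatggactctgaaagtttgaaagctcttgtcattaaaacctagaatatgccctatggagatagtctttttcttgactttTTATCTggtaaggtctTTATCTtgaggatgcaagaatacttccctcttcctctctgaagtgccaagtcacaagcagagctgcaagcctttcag
Gp9: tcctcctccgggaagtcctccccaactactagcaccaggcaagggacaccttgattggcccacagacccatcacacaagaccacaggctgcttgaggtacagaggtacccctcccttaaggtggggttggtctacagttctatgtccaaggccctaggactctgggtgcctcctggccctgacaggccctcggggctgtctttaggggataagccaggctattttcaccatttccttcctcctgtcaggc
Itga2b: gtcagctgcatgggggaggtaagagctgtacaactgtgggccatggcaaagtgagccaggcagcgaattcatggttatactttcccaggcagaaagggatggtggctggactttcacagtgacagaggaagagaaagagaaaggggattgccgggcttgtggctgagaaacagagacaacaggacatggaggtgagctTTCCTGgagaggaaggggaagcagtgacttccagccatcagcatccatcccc
Ppbp: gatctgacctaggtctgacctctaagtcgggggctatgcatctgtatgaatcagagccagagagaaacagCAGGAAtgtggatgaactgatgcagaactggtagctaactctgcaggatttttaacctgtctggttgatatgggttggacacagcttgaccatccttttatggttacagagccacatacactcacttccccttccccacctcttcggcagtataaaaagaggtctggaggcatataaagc
Pf4: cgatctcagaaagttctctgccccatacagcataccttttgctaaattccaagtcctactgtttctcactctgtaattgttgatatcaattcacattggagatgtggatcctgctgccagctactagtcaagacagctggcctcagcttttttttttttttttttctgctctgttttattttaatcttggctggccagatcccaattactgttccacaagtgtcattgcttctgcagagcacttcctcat
Gp1ba held GATA letters starting 104 and 51 bases before the start site and ETS letters 15 bases before it. Gp5 held GATA letters 93 and 77 bases before its start, Itga2b ETS letters 52 bases before and Ppbp ETS letters 180 bases before. The GENCODE span of Itga2b reaches 102470122, so most of its RefSeq window, with these ETS letters, lies inside the gene by that annotation. Pf4 had no match in the part shown and GATA letters 36 bases after its start. Gp9 had neither. In windows that also take in 50 bases after the start, GATA letters occurred in 10 of the 25 genes (40%) and in 18.6% of all 32851 RefSeq windows. ETS letters occurred in 10 of the 25 (40%) and in 33.1% of all windows. Each of the 25 genes was counted by its first window, while the shares of all windows take every window of a gene. Ltbp1, Tal1 and Ctla2a each had a further window that was not counted. None of these held GATA letters, and that of Ctla2a held ETS letters. Among the 12 genes with a window that fell, 4 held GATA letters and 6 held ETS letters. A match is a description of letters, and a window without one says nothing about the factor.

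Of the 6 genes classed under cytoskeleton, secretion and enzymes, 3 fell, where 1.98% of all tested genes fell. In all 6 every 50 kPa library lay below every 2 kPa library, a property of 16.9% of tested genes. Rab27b, a GTPase of granule secretion, had 0.342, 0.567 and 1.82 CPM at 50 kPa, against 9.32, 13 and 7.84 CPM at 2 kPa. It fell by 3.45 on the log2 scale (standard error 0.60, edgeR adjusted p = 0.0444), and stood at -4.44 without high tension replicate 3. Alox12, the platelet 12-lipoxygenase, had 0.467, 0.746 and 1.36 CPM at 50 kPa, against 5.41, 5.97 and 5.41 CPM at 2 kPa. Nrgn, the calmodulin-binding protein neurogranin, had 0.996, 0.955 and 2.03 CPM at 50 kPa, against 8.20, 6.96 and 5.35 CPM at 2 kPa. Alox12 fell by 2.70 and Nrgn by 2.36 on the log2 scale (edgeR adjusted p = 0.0349 and 0.036). Tubb1, the beta tubulin of the platelet marginal band, had 0.747, 0.925 and 2.20 CPM at 50 kPa, against 4.79, 6.43 and 5.44 CPM at 2 kPa. It lay just past the threshold (-2.10 ± 0.42, edgeR adjusted p = 0.0541). It was called without high tension replicate 3 (-2.72, edgeR adjusted p = 0.027), with the replicate number as a block (edgeR adjusted p = 0.0468) and by limma-voom (adjusted p = 0.0403).

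Ctla2a, a mouse cysteine protease inhibitor homologue, had 1.59, 1.82 and 5.15 CPM at 50 kPa, against 11, 18.5 and 11.3 CPM at 2 kPa. It was not called (-2.25 ± 0.50, edgeR adjusted p = 0.0633), but it was without high tension replicate 3 (-2.99, edgeR adjusted p = 0.0282) and by limma-voom (adjusted p = 0.0498). Its reads may be shared with its close paralogue Ctla2b, and its exons overlap those of Gm49393 and Gm49391 on the same strand (387 bases). Mylk, the myosin light chain kinase, had 16.4, 14.7 and 37.5 CPM at 50 kPa, against 46.4, 79.3 and 81.0 CPM at 2 kPa, with a log2 fold change of -1.59 ± 0.42 (edgeR adjusted p = 0.0826). It was called without high tension replicate 3 (-2.14, edgeR adjusted p = 0.0412) and with the replicate number as a block (edgeR adjusted p = 0.0467).

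Among the 6 transcription factor genes only Gata1 passed the edgeR test, where 1.98% of all tested genes fell. DESeq2 called 3 of the 6 lower, beside 9.51% of all tested genes. The median log2 fold change of the 6 was -1.04, against -2.33 for the receptors, -3.44 for the secreted and granule genes and -2.31 for the cytoskeleton, secretion and enzyme genes. These medians were not tested against each other. Gata1, the zinc finger factor of megakaryocytes, erythroid cells, mast cells and eosinophils, had 0.467, 0.537 and 1.16 CPM at 50 kPa, against 3.60, 7.24 and 3.45 CPM at 2 kPa. It was 6.61-fold lower at 50 kPa (edgeR adjusted p = 0.045). Gfi1b, a repressor that acts in the same lineages, had 0.311, 0.358 and 0.665 CPM at 50 kPa, against 1.50, 2.78 and 1.14 CPM at 2 kPa. Nfe2, the factor of late megakaryocyte maturation, had 12.1, 13 and 24.8 CPM at 50 kPa, against 31.5, 67.0 and 32.6 CPM at 2 kPa. In both genes the groups were apart and neither was called by edgeR (adjusted p = 0.0675 for Gfi1b and 0.101 for Nfe2). DESeq2 called both lower (adjusted p = 0.00234 for Gfi1b and 0.00878 for Nfe2).

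Tal1, a helix-loop-helix factor of blood progenitors, was close to level, with 50.8, 54.3 and 53.2 CPM at 50 kPa, against 51.4, 48.6 and 54.8 CPM at 2 kPa. Its log2 fold change was 0.032 ± 0.083 (edgeR adjusted p = 0.817), and it took the other sign with total-count scaling (-0.097) and without low tension replicate 2 (-0.012). Fli1, an ETS factor of megakaryocytes and other blood and endothelial cells, had 20.5, 21.6 and 29.0 CPM at 50 kPa, against 33.8, 53.1 and 27 CPM at 2 kPa, and the groups overlapped (-0.68 ± 0.27, edgeR adjusted p = 0.172). Zfpm1, the gene of FOG1, was the single member with every 50 kPa library above every 2 kPa library, a pattern of 17.2% of tested genes. It had 14.5, 12.8 and 11.6 CPM at 50 kPa, against 8.38, 7.87 and 10.8 CPM at 2 kPa. It was not called (0.53 ± 0.17, edgeR adjusted p = 0.112).

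The libraries were not alike within a group. High tension replicate 3 was the highest of the 50 kPa libraries in 25 of the 32 genes and in all 15 that fell, against 42.3% of all tested genes. Low tension replicate 2 was the highest of the 2 kPa libraries in 23 of the 32 and in 14 of the 15 that fell, against 37.1% of all tested genes. Leaving out high tension replicate 3 moved the fold of 7 of the 15 by more than 1.5 times, all to larger falls, and no other single library did so for any of the 15.

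Platelet genes outside the 32 were read from a list of 76, of which 74 were tested. Of these 12 fell, 1 rose and 61 were not called, where 1.98% of all tested genes fell and 1.47% rose. The median log2 fold change was -0.30, against -0.028 for all tested genes. Many of the 76 are also expressed in myeloid cells. The receptors that fell included F2rl3, the gene of the thrombin receptor PAR4, with 0.218, 0.239 and 0.318 CPM at 50 kPa, against 1.16, 2.28 and 1.47 CPM at 2 kPa. Mpig6b, an inhibitory receptor of megakaryocytes listed under its older symbol G6b, had 0.0622, 0.119 and 0.145 CPM at 50 kPa, against 1.32, 1.01 and 0.661 CPM at 2 kPa. Tbxa2r, the thromboxane receptor gene, had 0.0311, 0.0299 and 0.0868 CPM at 50 kPa, which is 1 to 3 reads, against 0.699, 1.32 and 0.481 CPM at 2 kPa.

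The other called genes of the wider list have varied roles. Trpc6, a cation channel, changed by -3.17 ± 0.36, and Cavin2, a caveolar coat protein, by -3.48 ± 0.49. Both chains of the nitric oxide receptor guanylate cyclase fell, with log2 fold changes of -1.81 ± 0.28 for Gucy1a1 and -3.35 ± 0.51 for Gucy1b1. Rasgrp2, the exchange factor that activates RAP1 in platelets, changed by -2.51 ± 0.47, the coagulation factor V gene F5 by -1.93 ± 0.30, the dense granule gene Slc35d3 by -1.99 ± 0.33 and the transcription factor gene Mef2c by -0.79 ± 0.15. Pdgfb, a growth factor chain of platelets and macrophages, was the gene that rose, with 41.0, 45.5 and 29.9 CPM at 50 kPa, against 19.5, 13.6 and 18.5 CPM at 2 kPa. The edgeR adjusted p-values of these 9 genes, the 3 called receptors and Itgb3 lay between 0.0291 and 0.049. Calls in this list were lost with the same libraries as above: 0 genes were lower without high tension replicate 1, high tension replicate 2, low tension replicate 2 or low tension replicate 3, as for all tested genes in these fits.

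**Figure D4:**
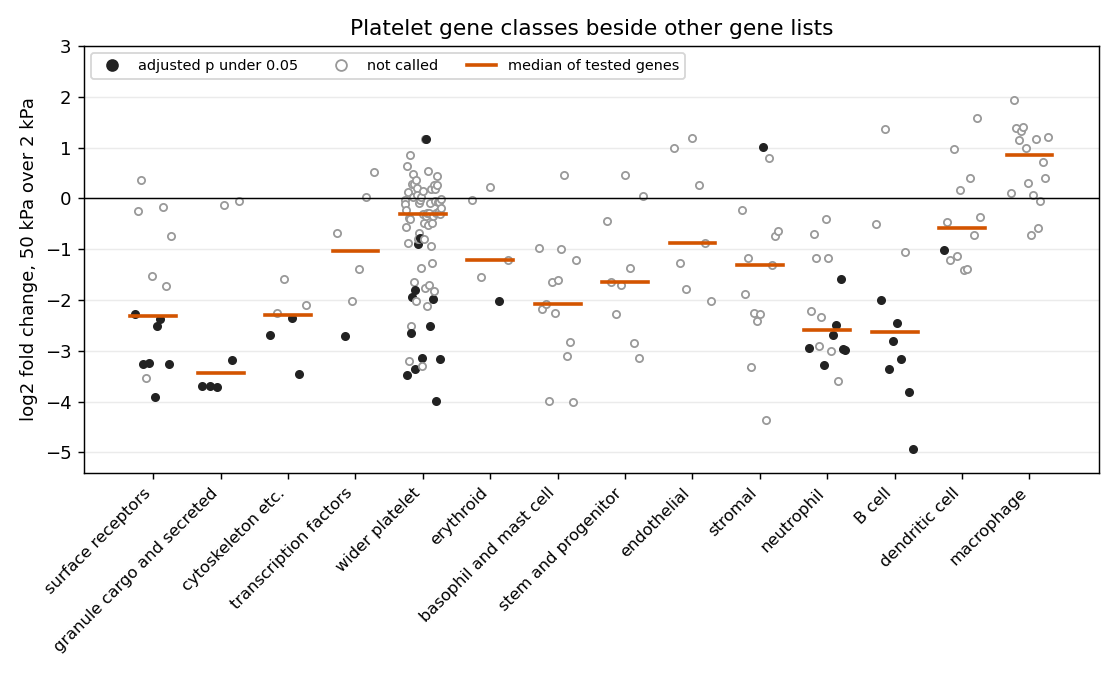
Log2 fold change, 50 kPa over 2 kPa, of each tested gene (points, filled for an adjusted p under 0.05) in the 4 classes of platelet genes and in other gene lists, with a bar at each list's median. The secreted and granule class has the lowest median (-3.44) and the macrophage list the highest (0.85).

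Erythroid genes, which share GATA1, TAL1 and GFI1B with megakaryocytes, were almost absent. Of 24 listed 23 were in the tables, 6 had 0 counts in every library and 5 passed the filter. Alas2, Hba-a1 and Hba-a2 were at 0 throughout, Hbb-b1 had a single read in low tension replicate 2, and Klf1 reached at most 0.124 CPM at 50 kPa and 0.0776 CPM at 2 kPa. Counts of near-identical globin genes depend on how reads with several matches were treated. The summed level ran from 34.8 to 39.9 CPM at 50 kPa and from 35.1 to 49.2 CPM at 2 kPa, mostly from Gypc, a glycophorin also found outside the erythroid lineage (0.22 ± 0.15). Sptb, the beta spectrin gene, fell by 2.02 on the log2 scale (standard error 0.24, edgeR adjusted p = 0.0296), while Epor (-1.54 ± 0.41) and Tspan33 (-1.22 ± 0.36) were not called. The median of the 5 was -1.22.

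Genes of other cells that could share some of the 32 are given beside them. Of all tested genes, 1.98% were lower and 1.47% higher by edgeR at an adjusted p under 0.05. By unadjusted edgeR p under 0.05 these shares were 14.8% and 13%, and by DESeq2 9.51% and 8.52%. Basophil and mast cell genes, which rely on Gata1 and Gata2, gave 0 calls among 13 tested by edgeR, with 9 lower at an unadjusted p under 0.05 and 9 lower by DESeq2, and a median of -2.09. Their 15 listed genes summed to 188 to 293 CPM at 50 kPa and 393 to 973 CPM at 2 kPa. Prss34 (-4.00 ± 0.94) and Fcer1a (-3.98 ± 0.95) had the smallest p-values. Endothelial genes gave 0 calls by edgeR among 7 tested of 15, with 4 lower at an unadjusted p under 0.05 and 3 lower by DESeq2, and a median of -0.89. Sox17 and Cldn5 were at 0 in every library, and Cdh5, the endothelial cadherin gene, ran from 0.781 to 2.21 CPM at 50 kPa and from 0.456 to 0.880 CPM at 2 kPa. The endothelial sum, 298 to 429 CPM at 50 kPa and 207 to 476 CPM at 2 kPa, came mostly from Kdr. Tie1 (-2.03 ± 0.50) and Erg (-1.78 ± 0.54) had its smallest p-values. Stem and progenitor genes gave 0 calls by edgeR among 9 tested of 10, with 5 lower at an unadjusted p under 0.05 and 5 lower by DESeq2. Their median was -1.65, and they summed to 311 to 533 CPM at 50 kPa and 267 to 513 CPM at 2 kPa. Mycn (-3.15 ± 0.65) and Myb (-2.85 ± 0.73) led this list.

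The same shares of all tested genes stand beside the next lists (1.98% lower and 1.47% higher by edgeR). By unadjusted edgeR p under 0.05 these are 14.8% and 13%, and by DESeq2 9.51% and 8.52%. Among 13 tested stromal genes of 14, 1 rose (Lepr, 1.01 ± 0.18) and 0 fell, with Lum at -4.36 ± 1.13, a median of -1.31 and sums of 181 to 193 CPM at 50 kPa and 120 to 277 CPM at 2 kPa. By unadjusted edgeR p under 0.05, 5 stromal genes were lower and 1 higher, and by DESeq2 4 were lower and 1 higher. Neutrophil genes fell in 7 of 16, led by Ltf (-3.28 ± 0.40) and Pglyrp1 (-2.50 ± 0.30). At an unadjusted edgeR p under 0.05, 15 of the 16 neutrophil genes were lower, and DESeq2 called 14 lower. Their sums were 922 to 1765 CPM at 50 kPa and 3967 to 7973 CPM at 2 kPa, with a median of -2.60. B cell genes fell in 7 of 10, led by Cd79b (-2.81 ± 0.33) and Ms4a1 (-3.16 ± 0.42), with a median of -2.64 and sums of 52.3 to 55.4 CPM at 50 kPa and 106 to 167 CPM at 2 kPa. Of these 10, 8 were lower and 1 higher at an unadjusted edgeR p under 0.05, and 7 lower and 1 higher by DESeq2. In the dendritic cell list 1 of 12 fell (Adam23, -1.02 ± 0.17), Dpp4 stood at -1.41 ± 0.28, and the median was -0.59. By unadjusted edgeR p under 0.05, 6 of the 12 were lower and 2 higher, with the same counts by DESeq2. Macrophage genes, of cells that can also make Pf4, gave 0 calls by edgeR among 16, with 8 higher at an unadjusted p under 0.05 and 6 higher by DESeq2. Their median was 0.85, with Apoe at 1.94 ± 0.45. In replicate order they summed to 7180, 7513 and 6514 CPM at 50 kPa and 5040, 2671 and 4888 CPM at 2 kPa. Within each group this library order was the reverse of that of Pf4. The part of these cells in the values of the platelet genes was not tested.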

How the data were processed

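PolyA RNA of 6 mouse marrow cultures was sequenced, 3 at 50 kPa and 3 at 2 kPa. The authors deposited 6 tables of raw whole-number counts, a row for each gene symbol. The tools listed per the submitters' processing notes are TopHat2 2.0.11, HTSeq 0.6.1p2, FastQC 0.11.2 and edgeR 3.8.6 and 3.16.5, and the builds listed are hg19 and mm10, without role or order. Per the labels the library kit was directional. No source used here states the annotation or whether counting used the strand.

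The test was edgeR 4.0.16 in R 4.3.3 (filterByExpr with minimum count 10 and minimum total 15, TMM factors of 0.927 to 1.16, glmQLFit and glmQLFTest with stiffness as the term), 2-sided, with Benjamini-Hochberg adjustment over all 13155 tested genes and a threshold of 0.05. Values after ± are standard errors, taken as the log2 fold change over the root of its F statistic (n = 3 libraries a group). Intervals for single counts were not computed, and low levels carry counting error on top of the spread between libraries. The fit was tested on simulated libraries drawn independently of each other. That test does not cover the close resemblance of high tension replicates 1 and 2. DESeq2 1.42.0 and limma-voom (limma 3.58.1) were alternatives, as were other scalings and filters, replicate number as a block, leaving out each library and summing high tension replicates 1 and 2.

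The members and lists were chosen with earlier results of these data known. All members were to be named. Of the wider platelet and erythroid lists the called genes and the 4 with the smallest p were named, and of other lists the 2 with the smallest p. Some genes that these rules name are not reported here. List symbols were matched directly or, for 6 genes, by an older symbol in RefSeq, and 1 was unmatched. Positions, exon lengths and exon overlaps came from GENCODE vM21 (GRCm38), and promoters from RefSeq. Nothing in the labels ties equal replicate numbers to 1 animal or day, so no pairing was assumed.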

Additional observations from a re-analysis of the deposited data

How the results depend on the processing

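With RLE or upper-quartile scaling and with no low-count filter all 32 genes kept their direction and their side of the threshold. The count of genes lower at 50 kPa, 15 by edgeR, was 23 by DESeq2 and 0 with high tension replicates 1 and 2 summed, which leaves 2 samples at 50 kPa. Leaving out 1 library gave 0 to 19 lower genes, and 0 of the 32 were called higher under every alternative run. In the 5 fits with 0 lower genes among the 32 (without high tension replicate 1 or 2 or low tension replicate 2 or 3, and with the summed libraries) all tested genes also gave 0 lower and 0 to 3 higher. Total-count scaling gave 16 lower and put the median of all tested genes at -0.16 (log2), and requiring 1 CPM or more in 3 libraries gave 12. Limma-voom called 18. Signs turned for 4 genes, none of them called. Tal1 stood at -0.097 with total-count scaling, and without 1 library it ran from -0.012 (without low tension replicate 2) to 0.077. Leaving out 1 library gave -0.42 to 0.017 for Esam, whose positive value came without low tension replicate 2. Pf4 ran from -0.80 without high tension replicate 3 to 0.25, being positive without high tension replicate 1 (0.087), high tension replicate 2 (0.19) or low tension replicate 2 (0.25), and 0.14 with high tension replicates 1 and 2 summed. Vwf ran from -0.22 to 0.28, being positive without high tension replicate 3 (0.14) or low tension replicate 1 (0.28). The causes were not tested. With the replicate number as a block 17 of the 32 were lower. Across genes, deviations of equal-numbered libraries from their group means had correlations of 0.54, -0.11 and 0.49 (numbers 1, 2 and 3), and 3 of 6 libraries were closest to their own number, a hint from the data only. Over all genes edgeR's lower and higher calls were 260 and 194, 522 and 254 with the block, 1251 and 1121 by DESeq2, 160 and 127 under the 1 CPM filter and 257 and 77 with total-count scaling. Genes with few reads at 50 kPa, such as Gp9, Gp1bb and Ltbp1, have fold changes that depend most on single reads.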

Other observations

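Thbs1, the gene of thrombospondin 1, a platelet granule protein that macrophages also make, was picked after its values were seen. It had 1935, 1399 and 6465 CPM at 50 kPa, against 1734, 5653 and 4574 CPM at 2 kPa. The library order at 50 kPa was that of Pf4, with replicate 3 highest and replicate 2 lowest, and at 2 kPa replicate 2 was the highest in both genes. Neither gene was called (-0.29 ± 0.69 for Thbs1, edgeR adjusted p = 0.804).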
